A study of Mus musculus with 84 samples.

Results

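Among 84 bulk RNA libraries of mouse ventrolateral striatum, the transcript of Ttr (transthyretin, the thyroid hormone and retinol carrier that choroid plexus epithelium secretes) ranged from 0 to 5304 counts. The 21 libraries with the highest Ttr level (the high-Ttr libraries) were set against the 21 with the lowest (the low-Ttr libraries), and the 42 between them belonged to neither side. Levels are CPM, counts scaled to a library total of 1000000. Both sides were chosen by the Ttr level alone, so its own values are given as a description, and it was left out of every test of the sides. Each library was 1 naive, untreated adult animal of the S4 SOT and NOT mouse strains, which the series describes as a genetic model of selection on ethanol preference together with withdrawal. The labels give 44 High Drinker animals (21 females, 23 males) and 40 Low Drinker animals (18 females, 22 males). All tissue was hand-dissected from flash-frozen brains, and the labels do not say which neighbouring regions a piece may have held.

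The choroid plexus hangs in the brain ventricles, where its epithelium makes cerebrospinal fluid, moves ions, folate and hormones across, and secretes transthyretin. Ependymal cells line the ventricle wall and carry beating cilia that move the fluid, a program switched on by the transcription factors Foxj1 and Rfx2/Rfx3. The striatum borders the lateral ventricle on one flank and the septum, the pallidum, the preoptic area and the cortex on others. In whole tissue, fewer cells of a type and less RNA per cell cannot be told apart.

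Ttr in the high-Ttr libraries ran from 0.633 to 184 CPM with a median of 5.48 CPM, which is 22 to 5304 counts. All 21 low-Ttr libraries had 0 counts, for which a floor of 3 counts allows 0.0812 to 0.110 CPM depending on depth (a limit from counting error only). Nearly all the Ttr signal lay in a few animals. The 5 highest were Low Drinker 7 at 184 CPM, Low Drinker 8 at 114 CPM, Low Drinker 18 at 104 CPM, High Drinker 9 at 94.2 CPM and Low Drinker 2 at 81.5 CPM. The next, Low Drinker 3, stood at 39.8 CPM. At the edge of the high side, High Drinker 2 had 0.633 CPM (22 counts), while the first library left out, Low Drinker 15, had 0.460 CPM (14 counts). At the lower edge, the last of the middle libraries, Low Drinker 35, had 1 count, so the lower boundary separates 0 counts from 1.

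**Figure D1:**
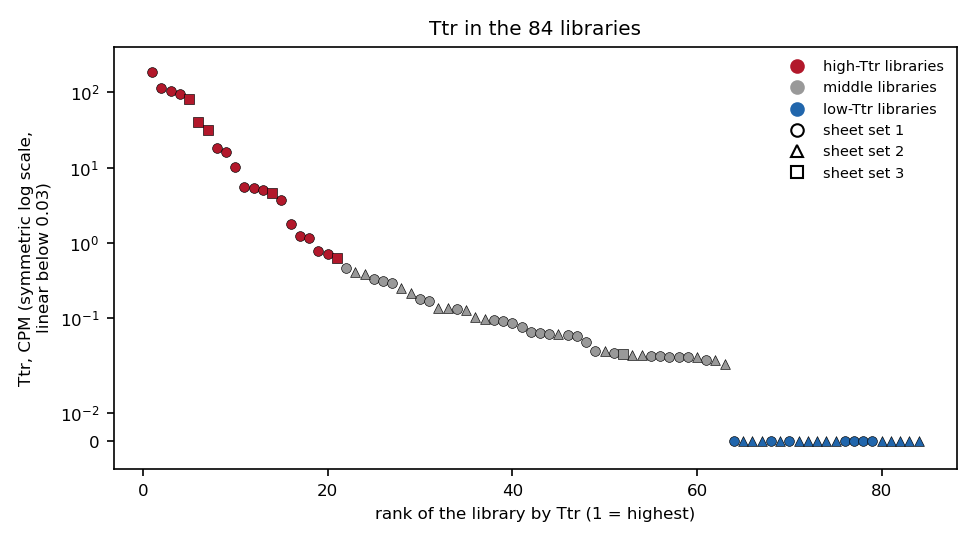
Ttr level (CPM, symmetric log scale, linear below 0.03) of each library against its rank, 1 point per library, coloured by side and shaped by sheet set. The 21 high-Ttr libraries span 0.633 to 184 CPM, the low-Ttr libraries all lie at 0, and no library of sheet set 2 is above 0.407 CPM.

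The sides were alike in line and sex but not in where the libraries stood on the sample sheet. The high side held 11 High Drinker and 10 Low Drinker animals, and the low side 8 and 13 (Fisher's exact test, two-sided, adjusted over 3 labels, p = 0.804). It held 11 females and 10 males against 12 and 9 (Fisher's exact test, adjusted p = 1). Sample numbers in the titles run in 3 sets of 48, 30 and 6 libraries, called sheet sets here. Whether they are batches is not stated. The high side took 16 libraries from set 1, 0 from set 2 and 5 from set 3, and the low side 7, 14 and 0. Over sets 1 and 2 this differed by Fisher's exact test, with an adjusted p of 6.3e-05. Within set 1, 13 of the 24 libraries numbered 1 to 24 were on the high side and 1 on the low side, against 3 and 6 of those numbered 25 to 48. High side and low side can therefore be compared within a set only in set 1 (16 against 7 libraries), and elsewhere Ttr rank and sheet set cannot be told apart.

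Depth was 22190363 to 34926766 counts in the high-Ttr libraries and 27300562 to 36935908 in the low-Ttr libraries. Of 5 libraries that correlated least with the rest, 2 were on the high side (High Drinker 17 and Low Drinker 8) and none on the low side, and counts without them are given beside the main gene groups. Ppp1r1b (DARPP-32, the defining protein of striatal medium spiny neurons) was read in all 84 libraries, at 79.9 CPM or more. The share of striatal tissue in each library was not measured.

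Choroid plexus genes were mostly scarce, and several had their highest levels in the libraries highest in Ttr. Folr1, the folate receptor of choroid epithelium, ranged over 0.0659 to 1.65 CPM (median 0.203) in the high-Ttr libraries and 0 to 0.529 CPM (median 0.0965) in the low-Ttr libraries. The sides overlapped, with 7 of 21 high-Ttr libraries above every low-Ttr library. The 5 libraries highest in Ttr held 0.697 to 1.65 CPM, above the other 16 of the side (at most 0.628 CPM). Kcne2, a potassium channel subunit of the choroid epithelium, showed the widest gap: 0.622 to 1.11 CPM in those 5 libraries and at most 0.260 CPM in the other 16. Its low-Ttr libraries ran from 0 to 0.154 CPM with a median of 0.0602 CPM, and 12 of 21 high-Ttr libraries lay above all of them.

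Slc4a5, a choroid bicarbonate transporter, read 0.0573 to 2.05 CPM (median 0.162) on the high side and 0.0304 to 0.198 CPM (median 0.101) on the low side. Cldn2, the claudin of the leaky choroid tight junction, read 0.0304 to 1.81 CPM (median 0.178) and 0.0308 to 0.241 CPM (median 0.108). Mfrp, a membrane frizzled-related protein whose exon reads cannot be separated from those of C1qtnf5, read 0.0576 to 1.91 CPM (median 0.232) and 0.0321 to 0.228 CPM (median 0.108). For all 3 genes the upper ends of the sides lay further apart than the medians. The highest value was in Low Drinker 7, the library highest in Ttr. For Mfrp the high-side median (0.232 CPM) was itself above the highest low-Ttr value (0.228 CPM). Kcne2, Slc4a5, Cldn2 and Mfrp were named after their values were seen. These genes fell below the count filter of the main test. They were tested in a fit with no filter, by edgeR's quasi-likelihood test with line as a covariate. Benjamini-Hochberg adjustment was over 30138 genes, of which 5.08% were called higher. There the log2 difference, high minus low, was 2.16 ± 0.39 (SE) for Kcne2 (adjusted p = 0.000331), 1.81 ± 0.33 for Mfrp (0.000331), 1.60 ± 0.35 for Slc4a5 (0.00216), 1.58 ± 0.40 for Folr1 (0.00770) and 1.54 ± 0.36 for Cldn2 (0.00479). The fit with sex and sheet set as terms did use the count filter, which with those terms kept these genes among 17493 (4.77% higher). A scarce gene can pass that filter through the libraries where it is high. In that fit the edgeR adjusted p was 0.0273 for Kcne2, 0.0828 for Mfrp, 0.169 for Slc4a5, 0.458 for Folr1 and 0.0779 for Cldn2.

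**Figure D2:**
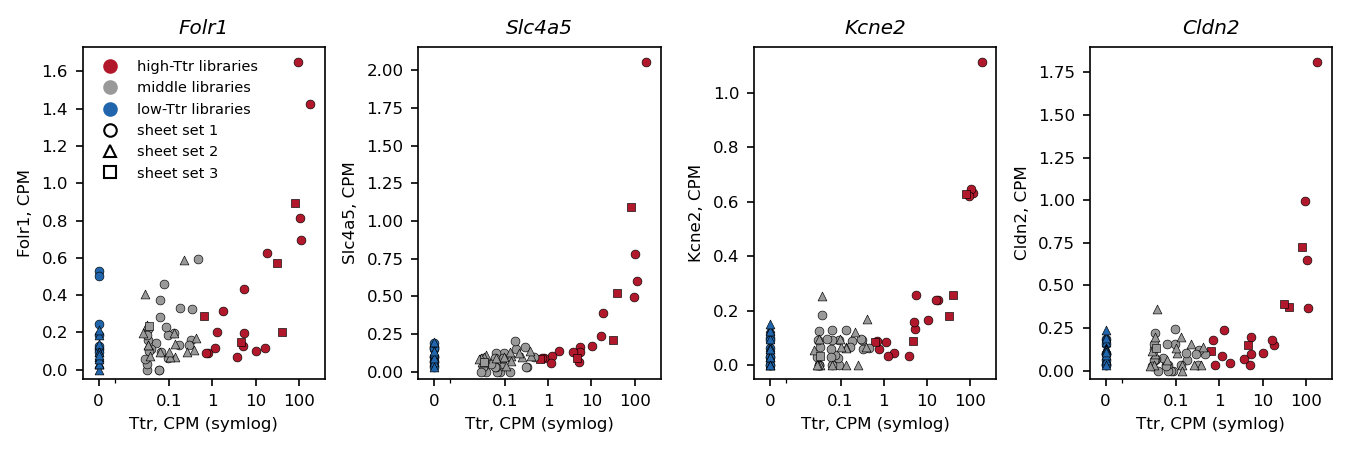
Levels (CPM) of Folr1, Slc4a5, Kcne2 and Cldn2 against Ttr (CPM, symmetric log scale), 1 point per library, coloured by side and shaped by sheet set. For Kcne2 the 5 libraries highest in Ttr hold 0.622 to 1.11 CPM and the other 16 high-Ttr libraries at most 0.260 CPM, within or just above the range of the rest.

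The main comparison of the sides, with line as covariate, tested 16799 genes, and 21.9% of them passed an adjusted p of 0.05 (11.1% higher and 10.8% lower in the high-Ttr libraries, edgeR quasi-likelihood test with Benjamini-Hochberg adjustment). The median log2 difference over all tested genes was 0.01. No gene had every high-Ttr library above every low-Ttr library, nor every one below (0.0% of genes in each direction). Among choroid genes that passed the count filter, 4 of 9 secreted carriers and factors rose and 0 fell (median log2 difference 0.63). Of ion and water transporters, 2 of 10 rose and 1 fell (0.16). Of nutrient transporters and receptors, 2 of 11 rose and 0 fell (-0.01), and of junction, matrix and transcription factor genes 5 of 10 rose and 1 fell (0.45). These counts cover 40 of 56 listed genes. A scarce gene can pass the count filter through the libraries where it is high, so they describe the genes tested and not the whole lists. With no count filter 5.08% of all genes were called higher. There 4 of 10, 3 of 12, 4 of 16 and 11 of 17 genes rose, in the same order of lists, and 0, 1, 0 and 1 fell.

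These counts were taken again in other edgeR fits, each read against its own share over all genes. With sex and sheet set as terms 4.77% of all genes were called higher and 5.17% lower, and the choroid lists, in the order above, had 1 of 9, 2 of 12, 1 of 12 and 3 of 15 genes higher. In set 1 alone, where 0.0117% of all genes were called, 0 choroid genes passed. Without the 5 libraries that stood apart (6.61% higher, 8.73% lower) 4 of 9, 1 of 10, 1 of 11 and 5 of 9 rose. Without the 5 libraries highest in Ttr (6.46% higher, 8.34% lower) 2 of 9, 1 of 10, 1 of 11 and 2 of 9 rose, and the median of the secreted genes was 0.23. In females alone (3.42% higher, 3.95% lower) 4 of 9 secreted genes rose with a median of 0.80, and in males alone (0.0237% called) 0 did with a median of 0.08. The difference between the sexes was not tested.

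Sostdc1, a secreted inhibitor of BMP and Wnt signals, read 0.263 to 2.50 CPM (median 0.810) in the high-Ttr libraries and 0.0616 to 0.777 CPM (median 0.293) in the low-Ttr libraries. It lay above every low-Ttr library in 11 of 21 and above their median in 20 of 21, a log2 difference of 1.74 ± 0.25 (edgeR adjusted p = 1.48e-05). Within set 1 the difference was 1.75, with an edgeR adjusted p of 0.0574. Otx2, the transcription factor that specifies choroid plexus, read 0.149 to 5.51 CPM (median 1.26) against 0 to 1.85 CPM (median 0.436), overlapping in all but 6 high-Ttr libraries (1.54 ± 0.39, edgeR adjusted p = 0.00548). With sex and sheet set as terms Otx2 did not pass (edgeR adjusted p = 0.350). Calml4, a calmodulin-like protein (log2 difference 1.71), Clic6, a chloride channel family protein (0.995), and Col8a2, a collagen (0.85), also rose. These 5 genes were chosen after their values were seen.

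The most abundant members of the choroid lists include genes that other striatal cells are also known to express, and they rose, fell or did not pass. Enpp2 (autotaxin, also abundant in oligodendrocytes) read 151 to 340 CPM (median 204) in high-Ttr and 118 to 366 CPM (median 191) in low-Ttr libraries, and its log2 difference of 0.10 ± 0.12 did not pass (edgeR adjusted p = 0.599). Kl (Klotho), a choroid marker that neurons also express, read 1.79 to 11.3 CPM (median 3.65) against 0.677 to 6.59 CPM (median 2.78). Only 3 high-Ttr libraries exceeded all low-Ttr libraries, and Kl did not pass (0.51 ± 0.21, edgeR adjusted p = 0.0718). Vat1l rose (0.85), Col9a3, a collagen, rose (0.49), and Sulf1, an extracellular sulfatase, fell by 0.60 on the log2 scale. The neuronal bicarbonate transporter Slc4a10 fell by 0.30. Summed over each whole list, the ion and water transport genes lay at 283 to 501 CPM (median 418) in high-Ttr and 363 to 507 CPM (median 448) in low-Ttr libraries.

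The library in which each gene was highest, of all 84, was then recorded. For 33 of 55 choroid genes with any count (60.0%) the highest library was one of the 5 highest in Ttr, against 26.5% of all tested genes. By list it was 4 of 10 secreted carriers and factors, 8 of 12 ion and water transporters, 7 of 16 nutrient transporters and receptors, and 14 of 17 junction, matrix and transcription factor genes. Lists of other tissues had shares as high, with 4 of 5 septal, 11 of 16 thalamic, 9 of 14 astrocyte and 9 of 16 oligodendrocyte genes. For 42.7% of all tested genes the highest library was somewhere on the high side, against 76.4% of the choroid genes. The listed genes include scarce ones below the count filter, while the shares of all tested genes cover only the 16799 that passed it. The list shares and the shares of all genes are therefore not strictly alike. These shares describe 84 libraries and carry no test.

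Ependymal and motile cilia genes were higher across much of the high side. Of 45 tested members of 47, 24 rose and 0 fell, against 11.1% of all genes higher and 10.8% lower. The median log2 difference was 0.54. Foxj1, the master regulator of motile cilia, read 3.01 to 19.8 CPM (median 9.57) in high-Ttr and 2.84 to 12.4 CPM (median 5.74) in low-Ttr libraries. The ranges overlapped in all but 5 libraries, while 19 of 21 lay above the low-Ttr median (0.61 ± 0.17, edgeR adjusted p = 0.00864). Tekt4, a tektin of ciliary microtubules, read 0.487 to 1.83 CPM (median 0.970) against 0.154 to 1.17 CPM (median 0.441), and all 21 high-Ttr libraries were above the low-Ttr median (1.05 ± 0.19, edgeR adjusted p = 0.000274). Ccdc153, an ependymal marker, read 0.119 to 9.27 CPM (median 3.42) against 0.0301 to 6.65 CPM (median 0.831). Both sides covered nearly the whole range of Ccdc153 (1.41 ± 0.43, edgeR adjusted p = 0.0171).

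Other ciliary genes that rose were Dynlrb2, a dynein light chain (log2 difference 1.22, edgeR adjusted p = 0.00370), Tmem212 (1.61, 0.0152), Fam183b (0.79, 0.00834), Tekt1 (0.76, 0.00492) and the kinesin Kif6 (0.46, 0.00484). These 8 ciliary genes were picked after their values were seen, and all of them rose. Of the 45 tested genes 21 did not pass, among them Spag16 (0.74, edgeR adjusted p = 0.0564) and Iqca (0.23, 0.462). The list's count was smaller in several other fits. Of 45 genes 0 passed with sex and sheet set as terms together (4.77% of all genes higher, 5.17% lower), and the median was 0.26. In set 1 alone (16 against 7 libraries, 0.0117% of all genes called) 0 passed (0.31), and ranking set 1 by itself (12 highest against 12 lowest, 6.76% of all genes called higher and 8.31% lower) left 1. Without the 5 libraries that stood apart 11 rose (6.61% of all genes), and without the 5 highest in Ttr 6 rose (6.46% of all genes). In females alone (3.42% of all genes called higher) 31 of 45 rose with a median of 0.96. In males alone (0.0237% called) 0 passed with a median of 0.15, 31 of 45 being positive. The difference between the sexes was not tested. Summed over the list, ependymal genes lay at 203 to 392 CPM (median 261) in high-Ttr, 175 to 395 CPM (median 235) in middle and 155 to 386 CPM (median 221) in low-Ttr libraries, so the sides overlapped over nearly the whole range.

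Promoter sequences of 4 ciliary genes that rose are shown because regulatory factor X (RFX) proteins bind an X-box at ciliary genes. These 4 were picked because they carry 6 bases of it. Of the other ciliary genes named above as rising, Tekt4, Tmem212 and Kif6 held no match and Foxj1 had no window. Spag16 and Iqca, which did not pass, held 2 and 1 matches. The windows are the 250 bases before the gene start (RefSeq sequence, GRCm38.p6), printed 5′ to 3′ on the gene's strand, with each match in capitals. The letters searched, an X-box core, were GTTGCC or its reverse complement GGCAAC, on both strands. Ccdc153 lies at chr9:44240427-44240676 on the plus strand with a site 152 bases before the start, and Dynlrb2 at chr8:116504765-116505014 on the plus strand with a site at 51. Tekt1 lies at chr11:72361883-72362132 on the minus strand with sites at 35 and 15, and Fam183b at chr11:58801961-58802210 on the minus strand with sites at 67 and 16.
Ccdc153: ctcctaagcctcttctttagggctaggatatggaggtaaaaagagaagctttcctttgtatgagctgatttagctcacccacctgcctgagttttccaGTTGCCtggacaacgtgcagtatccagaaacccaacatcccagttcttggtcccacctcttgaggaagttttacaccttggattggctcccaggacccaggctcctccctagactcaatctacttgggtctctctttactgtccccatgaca
Dynlrb2: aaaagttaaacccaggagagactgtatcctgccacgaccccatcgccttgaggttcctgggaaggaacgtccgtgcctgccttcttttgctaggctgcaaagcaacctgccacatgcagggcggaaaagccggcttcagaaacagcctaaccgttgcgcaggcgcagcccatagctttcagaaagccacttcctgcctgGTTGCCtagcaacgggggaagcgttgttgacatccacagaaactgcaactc
Tekt1: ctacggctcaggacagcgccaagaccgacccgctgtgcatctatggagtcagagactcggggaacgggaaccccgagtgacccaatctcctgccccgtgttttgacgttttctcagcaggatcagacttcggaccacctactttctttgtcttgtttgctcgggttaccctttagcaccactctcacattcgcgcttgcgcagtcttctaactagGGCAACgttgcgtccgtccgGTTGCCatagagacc
Fam183b: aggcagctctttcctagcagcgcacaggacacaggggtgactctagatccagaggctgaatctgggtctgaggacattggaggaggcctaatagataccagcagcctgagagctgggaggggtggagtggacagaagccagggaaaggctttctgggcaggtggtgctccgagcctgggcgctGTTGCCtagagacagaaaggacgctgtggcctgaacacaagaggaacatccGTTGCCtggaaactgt
Of the 47 ependymal genes 40 had a window, and 13 of these (32.5%) held this core, against 10.5% of 27025 genes with a window. Among choroid genes 5 of 45 windows (11.1%) held it. The motif TAATCC (reverse complement GGATTA), which OTX proteins bind, was found in 3 of 45 choroid windows (6.67%) and 6.37% of all windows. A match is a description of these letters in these windows only.

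Most of the genes with the largest rises stood in no choroid list. Of the 15 higher genes with the largest log2 differences at an average of 1 CPM or more, Prlr, the prolactin receptor, is the one that also stands in a choroid list. Prlr read 0.527 to 16.8 CPM (median 3.39) in high-Ttr and 0.129 to 2.33 CPM (median 0.424) in low-Ttr libraries. In 14 of 21 high-Ttr libraries it lay above every low-Ttr library and in all 21 above their median (log2 difference 3.11 ± 0.39, edgeR adjusted p = 2.28e-06). Its highest library was Low Drinker 3 at 16.8 CPM, and High Drinker 2, lowest of the side in Ttr, held 8.26 CPM. Within set 1 the difference was 3.004 (edgeR adjusted p = 0.0520), with sex and sheet set as terms 3.08 (0.00785), and with the Ppp1r1b level as a term 2.80 (0.000207).

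Oxt, the neuropeptide oxytocin of hypothalamic neurons, had the largest log2 difference of these genes at 5.39 ± 1.01 (edgeR adjusted p = 0.000359). Its high levels lay in a minority of libraries. It read 0 to 78.9 CPM (median 0.327) on the high side and 0 to 3.45 CPM (median 0.0315) on the low side, and 7 of 21 high-Ttr libraries exceeded all low-Ttr libraries. The largest values were 78.9 CPM in Low Drinker 3, 59.9 CPM in Low Drinker 2, 23.4 CPM in Low Drinker 8 and 20.6 CPM in High Drinker 2. Low Drinker 18, the third in Ttr, had 0 CPM. Gal, the neuropeptide galanin, read 0.122 to 10.1 CPM (median 0.600) against 0.0541 to 1.28 CPM (median 0.215), again with 7 libraries clear of the low side (2.89 ± 0.48, edgeR adjusted p = 0.000103).

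Irs4, an insulin receptor substrate of hypothalamic neurons, read 0.823 to 29.9 CPM (median 3.77) in high-Ttr and 0.424 to 3.56 CPM (median 0.812) in low-Ttr libraries. It was above every low-Ttr library in 11 of 21 and above their median in all 21 (2.75 ± 0.39, edgeR adjusted p = 1.48e-05). Agt, the angiotensinogen of astrocytes, read 3.15 to 123 CPM (median 12.7) against 2.03 to 37.1 CPM (median 3.55), and 3 libraries stood clear of the low side (2.14 ± 0.43, edgeR adjusted p = 0.000750). Calcr, the calcitonin receptor, rose by the test (2.10, edgeR adjusted p = 0.0119), although its highest value, 15.8 CPM, was in a low-Ttr library. The other 9 of these 15 were Lbhd2 (log2 difference 2.45), the GABA-A receptor subunits Gabre (2.31) and Gabrq (1.91), Asb4 (2.26), Frem3 (2.12), Sytl4 (1.95), the neuronal globin Ngb (1.94), Arhgap36 (1.94) and Cd72 (1.83).

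The 15 lower genes with the largest differences included neuropeptide and receptor genes. Ndst4, a heparan sulfate-modifying enzyme, read 2.03 to 18.3 CPM (median 6.82) in high-Ttr and 0.567 to 118 CPM (median 29.6) in low-Ttr libraries, and all 21 high-Ttr libraries lay below the low-Ttr median (log2 difference -2.003 ± 0.44, edgeR adjusted p = 0.00144). The gap was smaller within set 1, where the medians were 6.14 and 13.3 CPM, than between set 1 high-Ttr libraries and the set 2 low-Ttr libraries (median 31.1 CPM). Abi3bp, an extracellular matrix protein, read 10.8 to 47.7 CPM (median 18.9) against 15.6 to 218 CPM (median 70.8), with the set 1 medians at 18.7 and 30.7 CPM (-1.88 ± 0.28, edgeR adjusted p = 2.11e-05). Adcyap1, the neuropeptide PACAP, fell by 1.38, Nmbr, the neuromedin B receptor, by 1.72 and Npsr1, the neuropeptide S receptor, by 1.36 on the log2 scale. The remaining 10 were Klhl14 (-1.93), Frmd7 (-1.88), Ly6g6e (-1.74), Tfap2d (-1.67), Cacng6 (-1.52), Tmem40 (-1.41), Prss30 (-1.40), Fos (-1.33), Acp7 (-1.25) and Hs3st3b1 (-1.11).

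**Figure D3:**
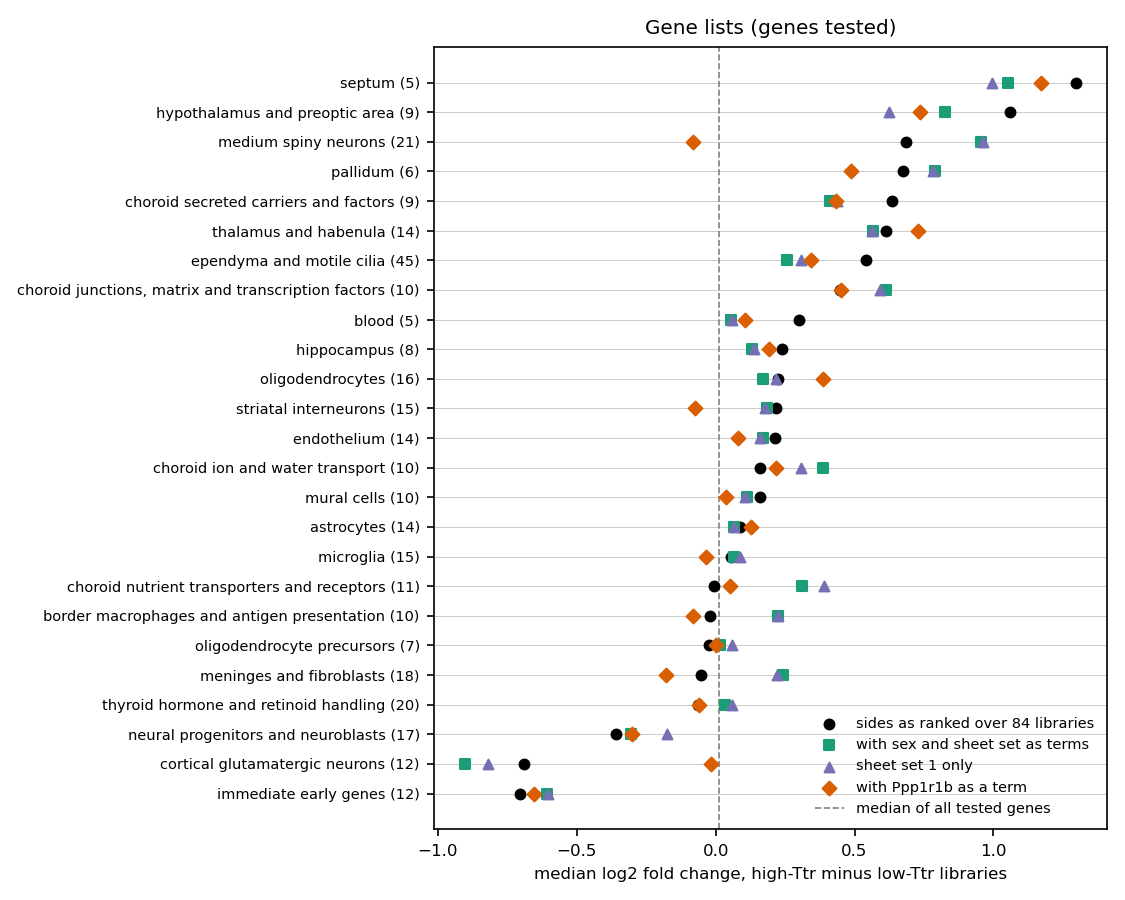
Median log2 difference, high-Ttr minus low-Ttr libraries, of each of 25 gene lists (genes tested in the main fit in parentheses), 1 symbol per fit. Septum (1.30) and hypothalamus (1.06) genes lie highest and immediate early genes (-0.71) lowest, while medium spiny neuron genes move from 0.68 to -0.08 and cortical genes from -0.69 to -0.02 once Ppp1r1b is a term.

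Genes of the septum, hypothalamus, pallidum and thalamus were among those that rose, while no cortical gene did. Of 5 septal genes 4 rose and 0 fell (median log2 difference 1.30), against 11.1% of all genes higher and 10.8% lower. Of the 5, 4 passed with sex and sheet set as terms (4.77% of all genes higher). Again 4 passed without the 5 libraries that stood apart (6.61%) and without the 5 highest in Ttr (6.46%). Ranking set 1 by itself left 1 (median 0.76, against 6.76% of all genes higher). In set 1 alone 0 passed (0.995), where 0.0117% of all genes were called. Zic1, a zinc finger factor of the septum and of medial brain territories, read 10.3 to 105 CPM (median 36.1) in high-Ttr and 3.62 to 33.4 CPM (median 17.3) in low-Ttr libraries, with 12 of 21 clear of the low side (1.38 ± 0.26, edgeR adjusted p = 0.000359). Its neighbours in the family rose too, Zic2 by 1.30 and Zic4 by 1.51 (Zic1 and Zic4 exons overlap, so their reads are not fully separable), as did Crhr2, a receptor of urocortins (0.95, chosen after its values were seen). Summed septal genes lay at 26.3 to 175 CPM (median 76.2) on the high side and 24.03 to 76.8 CPM (median 41.8) on the low side.

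Of hypothalamic and preoptic genes, 9 of 22 passed the count filter. Of these 5 rose and 0 fell (median 1.06), against 11.1% of all genes higher and 10.8% lower. The other 13 were too scarce for the filter, and those kept can have passed through a few high libraries. The median was 0.66 without the 5 libraries that stood apart (4 of 8 higher, against 6.61% of all genes). Without the 5 highest in Ttr it was 0.59 (4 of 8, against 6.46%). In High Drinker animals alone it was 0.47 (0 of 8, where 0.0% of all genes were called). In Low Drinker animals alone it was 0.39 (3 of 7, against 5.65% higher). The genes tested differed between these fits, so the medians do not cover the same members. Nkx2-1, the patterning factor of hypothalamus, preoptic area and pallidum, read 1.004 to 9.95 CPM (median 4.80) against 0.189 to 7.23 CPM (median 1.58), with 19 of 21 above the low-Ttr median (1.37 ± 0.29, edgeR adjusted p = 0.00121). Trh, thyrotropin-releasing hormone, rose by 1.06 and Hdc, the histamine-synthesising enzyme, by 1.11 (the latter chosen after its value was seen). Cartpt read 2.95 to 41.1 CPM against 1.54 to 80.6 CPM and did not pass (-0.23, edgeR adjusted p = 0.675). Of 6 pallidal genes 3 rose and 0 fell (median 0.68), against 11.1% of all genes higher and 10.8% lower. They were Nkx2-1 (also in the hypothalamic list), Lhx8 of cholinergic neurons (1.29, also in the striatal interneuron list) and Gbx1 (1.55, chosen after its value was seen). Npas1, Etv1 and Pvalb did not pass. With sex and sheet set as terms 3 of 6 rose (4.77% of all genes). None passed with the Ppp1r1b level as a term (1.3% higher) or in set 1 alone (0.0117% called).

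Thalamic and habenular genes rose in 8 of 14 tested members with 0 lower (median 0.61), against 11.1% of all genes higher and 10.8% lower. Prkcd, a protein kinase C abundant in thalamic relay neurons, read 9.78 to 298 CPM (median 28.1) in high-Ttr and 7.497 to 22.6 CPM (median 12.01) in low-Ttr libraries, with 12 of 21 clear of the low side (1.73 ± 0.29, edgeR adjusted p = 8.8e-05). Lhx9 (2.24), Gbx2 (1.63) and Tcf7l2 (0.998), all thalamic transcription factors, and Synpo2 (1.21) rose as well, and were chosen after their values were seen. One animal held the top of this list: 11 of the 16 genes were highest in Low Drinker 2, the library with 81.5 CPM of Ttr. In the fit with sex and sheet set as terms 1 of 14 rose (4.77% of all genes), with the Ppp1r1b level as a term 2 (1.3%), without the 5 libraries highest in Ttr 3 (6.46%), and without the 5 that stood apart 7 (6.61%). In females alone (3.42% of all genes called higher) 3 of 14 rose with a median of 0.91. In males alone (0.0237% called) 0 of 13 passed with a median of 0.07.

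Low Drinker 2 also carried lateral hypothalamic neuropeptides at levels seen in no other library. Pmch (melanin-concentrating hormone) stood at 164 CPM there, against at most 0.830 CPM in the other high-Ttr Low Drinker libraries and at most 0.391 CPM in the low-Ttr libraries. Hcrt (hypocretin) stood at 67.8 CPM, against at most 0.123 CPM on the low side. Shox2, a transcription factor of thalamic neurons, stood at 44.2 CPM and Tcf7l2 at 85.5 CPM. By contrast, Low Drinker 18, with a higher Ttr of 104 CPM, held 0.260 CPM of Pmch, 28.1 CPM of Prkcd and 0.0324 CPM of Shox2. The libraries at the top of the Ttr rank were therefore unlike one another in region genes. Pmch, Hcrt and Shox2 were chosen after their values were seen.

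**Figure D4:**
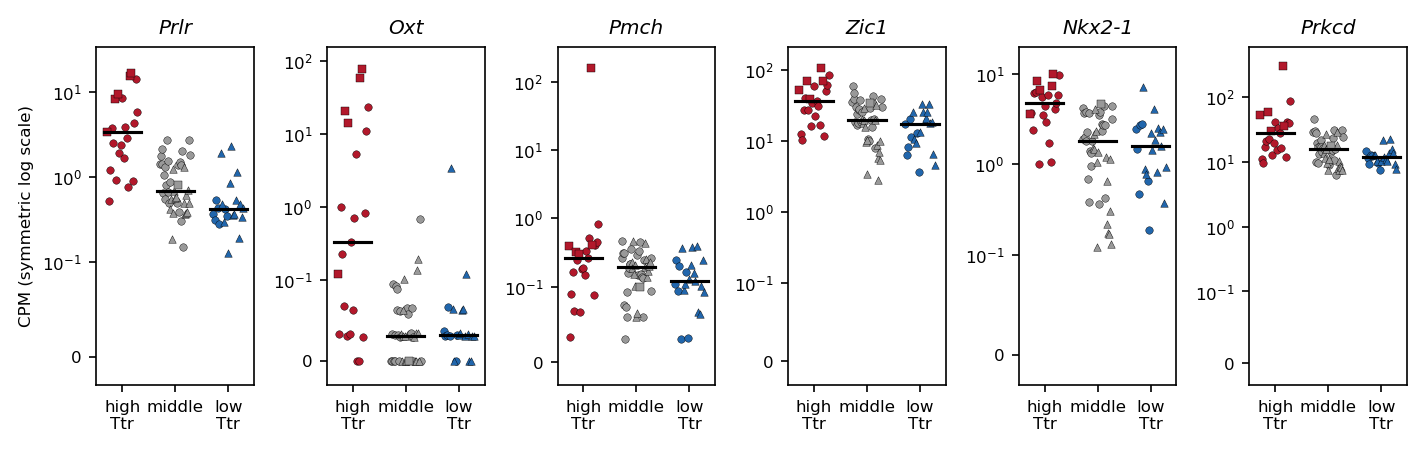
Levels (CPM, symmetric log scale) of Prlr, Oxt, Pmch, Zic1, Nkx2-1 and Prkcd in high-Ttr, middle and low-Ttr libraries, 1 point per library, shaped by sheet set, bars at the median. Oxt reaches 78.9 CPM in a few high-Ttr libraries while the side's median is 0.327 CPM, and 1 library alone holds Pmch at 164 CPM.

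Striatal and cortical neuron genes moved in opposite directions. Of 21 medium spiny neuron genes 17 rose and 0 fell (median log2 difference 0.68), and of 12 cortical glutamatergic genes 5 fell and 0 rose (-0.69), against 11.1% of all genes higher and 10.8% lower. Once sex and sheet set were terms 9 of 21 rose and 1 of 12 fell (medians 0.955 and -0.90), against 4.77% of all genes higher and 5.17% lower. Without the 5 libraries that stood apart the counts were 11 and 4 (6.61% and 8.73% of all genes). In females alone they were 1 and 4 (3.42% and 3.95%). In set 1 alone, where 0.0117% of all genes were called, they were 0 and 0 (medians 0.96 and -0.82). Ppp1r1b read 347 to 2630 CPM (median 1345) in high-Ttr and 274 to 1635 CPM (median 689) in low-Ttr libraries, with 7 of 21 clear of the low side (0.87 ± 0.22, edgeR adjusted p = 0.00588). Adora2a, an adenosine receptor (1.02) and Drd2, the dopamine D2 receptor (0.91), also rose, chosen after their values were seen. Slc17a7, the vesicular glutamate transporter of cortical neurons, read 98.8 to 1618 CPM (median 569) against 325 to 2111 CPM (median 1405), overlapping in all but 2 libraries (-0.88 ± 0.23, edgeR adjusted p = 0.00669). Tbr1, a cortical transcription factor, fell by 0.79.

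With the Ppp1r1b level as a term in the model, 0 medium spiny neuron genes and 0 cortical genes passed (medians -0.08 and -0.02). Ppp1r1b is itself in the medium spiny neuron list, so a smaller count there follows from the term and is not a result about the list. Cortical genes moved opposite to that list, so their smaller count cannot be read apart from the term either. In that fit 10 of 12 immediate early genes fell, and 6 of 13 hypothalamic, 8 of 16 oligodendrocyte, 3 of 5 septal and 1 of 45 ependymal genes rose. Over all genes that fit called 3.39% (1.3% higher and 2.09% lower), against 21.9% without the term. Whether the striatal pattern follows the Ttr level within the high side was not tested. None of the 21 medium spiny neuron genes peaked in the 5 libraries highest in Ttr, against 26.5% of all tested genes. In the other 16 libraries of the side 19 peaked, against 2725 of 16799 tested genes. Genes of 1 list can share a highest library, so these counts are not separate observations. Low Drinker 18, at 104 CPM of Ttr, had 706 CPM of Ppp1r1b and 1520 CPM of Slc17a7, nearer to the low-Ttr medians of 689 and 1405 CPM than to those of its own side.

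Immediate early genes, which neurons switch on within minutes of activity, were lower in the high-Ttr libraries in all 12 of 12 tested members. Their median log2 difference was -0.71, and 10.8% of all genes were lower. Fos read 3.38 to 40.9 CPM (median 10.9) in high-Ttr and 20.8 to 52.3 CPM (median 36.9) in low-Ttr libraries, and 16 of 21 high-Ttr libraries lay below every low-Ttr library (-1.33 ± 0.19, edgeR adjusted p = 1.48e-05). Nr4a1, a nuclear receptor of this class, read 36.9 to 134 CPM (median 64.6) against 98.3 to 208 CPM (median 160), with 17 of 21 below the whole low side (-1.08 ± 0.13, edgeR adjusted p = 2.14e-06). Arc, a synaptic plasticity protein, fell by 1.06, Junb by 0.71 and Egr1 by 0.53 on the log2 scale.

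The sheet sets move with this result as well: the median Fos level was 10.96 CPM in set 1 high-Ttr libraries, 10.1 CPM in set 3 high-Ttr libraries, 29.2 CPM in set 1 low-Ttr libraries and 38.2 CPM in set 2 low-Ttr libraries. Within set 1 the log2 difference of Fos was -1.12 (edgeR adjusted p = 0.0754) and that of Nr4a1 -0.94 (0.0567). With sex and sheet set as terms 7 of 12 passed (5.17% of all genes lower), and after ranking set 1 alone 8 of 12 (8.31% lower). The part that position on the sheet plays was not tested beyond these fits. Summed over the list, immediate early genes lay at 354 to 1105 CPM (median 590) on the high side and 833 to 1509 CPM (median 1100) on the low side.

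**Figure D5:**
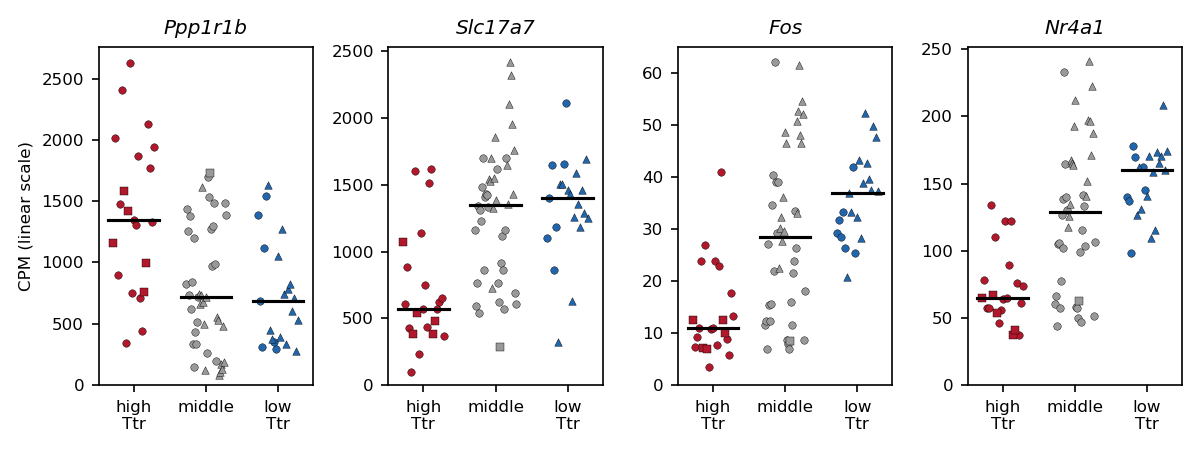
Levels (CPM, linear scale) of Ppp1r1b, Slc17a7, Fos and Nr4a1 in high-Ttr, middle and low-Ttr libraries, 1 point per library, shaped by sheet set, bars at the median. Fos has a median of 10.9 CPM in the high-Ttr and 36.9 CPM in the low-Ttr libraries, and 16 of 21 high-Ttr libraries lie below all low-Ttr libraries.

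Markers of other cell types that a dissected piece can hold were read in the same way, against 11.1% of all genes higher and 10.8% lower. Of 17 progenitor and neuroblast genes 4 fell and 1 rose (median -0.36). One of the lower genes was Dcx, the microtubule protein of migrating neuroblasts, at 24.7 to 54.4 CPM (median 40.2) against 30.1 to 111 CPM (median 57.7) (-0.63 ± 0.13, edgeR adjusted p = 0.000658). The median of Dcx was 43.96 CPM in the low-Ttr libraries of set 1 and 67.1 CPM in those of set 2. Of 16 oligodendrocyte genes 6 rose and 0 fell (median 0.22), among them Mobp of myelin (0.38) and Cnp (0.22), while Mbp did not pass (0.25, edgeR adjusted p = 0.0592). Of 7 oligodendrocyte precursor genes 1 rose and 1 fell, and of 14 astrocyte genes 4 rose and 0 fell (median 0.09), Agt being one of them. Striatal interneuron genes split, with 4 of 15 higher and 5 lower, Sst (-0.33) and Npy (-0.24) among the lower.

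Blood, vessel, meningeal and immune markers were read against the same shares over all genes. Of 5 tested blood genes 0 passed (median 0.30), and summed blood genes lay at 27.4 to 83.8 CPM on the high side and 21.4 to 85.8 CPM on the low side. Of 18 meningeal and fibroblast genes 0 rose and 2 fell (-0.05). Of 14 endothelial genes 2 rose and 0 fell (0.21), and of 10 mural genes 2 rose and 1 fell (0.16). Of 15 microglial genes 1 rose and 1 fell (0.06), and of 10 border macrophage and antigen presentation genes 0 passed (-0.02). Hippocampal genes split, 3 of 8 higher and 2 lower. Of 20 genes for handling thyroid hormone and retinoids, the ligands that transthyretin and its partner carry, 2 rose and 2 fell (-0.07): Rxrg, a retinoid X receptor of striatal neurons, rose (0.69, edgeR adjusted p = 0.0233) and Thra, the main brain thyroid hormone receptor, fell by 0.13 (0.0194).

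The sides were also compared within sheet sets over all genes. In set 1 alone, with 16 against 7 libraries, 2 genes passed (0.0117% of 17062): Gm3604 (log2 difference 1.27) and Htr4, a serotonin receptor (1.66), each with an edgeR adjusted p of 0.0341. At an unadjusted p under 0.05 there were 4154, and 3665 of the 3676 genes called in the main comparison and tested there had the same sign. Ranking set 1 by itself and taking 12 libraries from each end gave 15.1% of genes called. In set 2, where Ttr never exceeded 12 counts, 8 libraries with the most Ttr against 14 at 0 gave 0.0% called by edgeR (4012 genes at an unadjusted p under 0.05), and 1603 of 3626 main calls kept their sign.

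In the 42 middle libraries, which the rule used for neither side, Ttr had 1 to 14 counts. There 0.0% of 17399 genes followed log2(Ttr CPM + 1) by edgeR's quasi-likelihood test with line as a covariate (588 at an unadjusted p under 0.05). Among ependymal genes 39 of 45 had a positive slope (median 0.82), among medium spiny neuron genes 21 of 21 (0.97), and among cortical genes 1 of 12 (-0.65), with a median over all genes of -0.00. Immediate early genes had a positive slope in 10 of 12 (0.23), opposite to their sign between the sides. None of these slopes passed. They are per unit of log2(Ttr CPM + 1), while Ttr in these libraries spanned only 0.0278 to 0.460 CPM. Their size therefore cannot be set beside the differences between the sides. In simulated counts this test recovered 42% of the genes given a 2-fold change per unit.

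Whether the difference between the sides differed between the lines was tested by an interaction term, and 0.0% of 17132 genes passed (386 at an unadjusted p under 0.05, edgeR quasi-likelihood test). In High Drinker animals alone 0.0% of genes were called (1837 at an unadjusted p under 0.05, 11 against 8 libraries), and in Low Drinker animals alone 11.8% (10 against 13). The low side held 5 libraries of set 1 and 3 of set 2 in High Drinker animals, and 2 and 11 in Low Drinker animals. The high side held 8 of set 1 and 3 of set 3 in High Drinker animals, and 8 and 2 in Low Drinker animals. Sheet set thus parted the sides more fully in Low Drinker animals, and its part in these shares was not tested. The interaction is the test of a difference between the lines, and it did not pass for any gene. In High Drinker animals the median log2 difference was 0.44 over ependymal genes and -0.70 over immediate early genes, and in Low Drinker animals 0.66 and -0.75.

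The lines themselves were compared over all 84 libraries with sheet set and sex as terms, which does not use the Ttr rank. Of 17909 genes, High Drinker libraries were higher in 1.63% and lower in 2.26% (edgeR quasi-likelihood test). Over the choroid and ependymal lists 0 genes were higher and 5 were lower: the sperm and cilia protein Mns1 (log2 difference, High minus Low Drinker, -0.70 ± 0.14, edgeR adjusted p = 0.000911), Slc4a5 (-1.07 ± 0.28, 0.0147), Mfrp (-0.94 ± 0.26, 0.0197), 1110017D15Rik (-0.37 ± 0.11, 0.0321) and Kcne2 (-1.06 ± 0.32, 0.0436). With no count filter Kcne2 and 1110017D15Rik did not pass and Lmx1a did, and with no sheet set term Mns1 and 1110017D15Rik alone passed. Of the 5 libraries highest in Ttr 4 were Low Drinker animals, and Slc4a5, Mfrp and Kcne2 had their high values in those libraries. The median Ttr level was 0.0695 CPM over the 44 High Drinker libraries and 0.0507 CPM over the 40 Low Drinker libraries. Mns1 and 1110017D15Rik did not differ between the Ttr sides by the test (edgeR adjusted p = 0.536 and 0.131).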

How the data were processed

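The authors deposited whole-number read counts per gene, 1 column per animal. The submitters' processing notes name mm10 with STAR, featureCounts (Subread), FastQC and edgeR, and no version or strand setting is given in the sources used here. Per the labels, cDNA was amplified with an Ovation kit before library preparation. Amplified duplicates cannot be told apart from separate molecules, and strand is not marked, so overlapping genes cannot be separated: of 158 named genes, 9 share exon bases with a gene on the same strand and 39 with one on the opposite strand. The table holds 43629 genes, of which 12117 had no count in any library, and 42462 were matched to a symbol.

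CPM was computed as the count over the library total times 1000000. Sides were compared by quasi-likelihood F-tests of edgeR (4.0.16, under R 4.3.3) after TMM scaling and filterByExpr, with line as covariate and Ttr removed, with Benjamini-Hochberg adjustment over all tested genes at 0.05. DESeq2 1.42.0 was an alternative. The code was tested on simulated counts. Replicates are separate animals, so p-values measure the spread between animals. Figures used matplotlib 3.10.9.

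The members and gene lists were chosen with earlier results of these data known. Named genes were, among calls with an established symbol and an average of at least 1 CPM, the 15 with the largest rise and the 15 with the largest fall, the 4 most abundant tested members of each of 25 lists, and Folr1 and Kl. Another 28 genes, and genes behind counts of 5 or fewer, were chosen after their values were seen. Alternatives were normalization, the count filter, sex and sheet set or Ppp1r1b as terms, subsets of libraries and other side sizes.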

Additional observations from a re-analysis of the deposited data

Results flagged for a closer look

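Values were checked for single libraries far from the others of their side and line (on log2(CPM + 1), groups of 10 high-Ttr Low Drinker and 8 low-Ttr High Drinker libraries; larger groups were not checked). Of 317 checks 44 were flagged, and chance flags about 1 in 20.

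High Drinker 40, which had 0 counts of Ttr, stood far from the other 7 low-Ttr High Drinker libraries in 22 genes. It was the highest in Oxt (3.45 CPM, the next library 0.0662 CPM), Prlr (1.93 CPM, next 0.535 CPM), Gal (1.28 CPM), Irs4 (2.91 CPM), Gabre (1.86 CPM), Agt (37.1 CPM), Frem3 (4.09 CPM), Calcr (2.30 CPM), Sytl4 (1.49 CPM), Gabrq (6.56 CPM) and Avp (0.642 CPM). It was also the highest in Gbx2 (3.45 CPM), Tcf7l2 (16.7 CPM), C1ql2 (4.87 CPM), Sostdc1 (0.777 CPM), Igf2 (55.9 CPM), Slc29a4 (19.4 CPM), Cd74 (4.09 CPM) and Atp1b2 (466.5 CPM). It was the lowest in Slc17a7 (325 CPM, next 861 CPM), Cacng6 (0.574 CPM) and Tmem40 (1.25 CPM). Region genes were thus high in a library with no Ttr count.

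Low Drinker 2 was the highest of the high-Ttr Low Drinker libraries in Pmch (164 CPM, next 0.830 CPM), Hcrt (67.8 CPM), Shox2 (44.2 CPM), Ntng1 (125 CPM), Prox1 (52.5 CPM), Slc4a2 (58.3 CPM) and Cnp (610 CPM). Low Drinker 8 was the lowest in Slc4a10 (91.9 CPM), Slc1a2 (1281 CPM), Pdgfra (29.1 CPM) and Klf9 (65.0 CPM) and the highest in Col9a3 (52.8 CPM). Low Drinker 4 was the lowest in the ciliary genes Foxj1 (3.01 CPM), Ccdc153 (0.119 CPM) and Cfap54 (5.33 CPM) and in Flt1 (15.2 CPM), although its Ttr was 16.3 CPM. Low Drinker 7 was the highest in Cldn2 (1.81 CPM).

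Among other low-Ttr High Drinker libraries, High Drinker 30 was the lowest in Igfbp2 (13.5 CPM) and the highest in Sox11 (45.6 CPM) and Mfrp (0.198 CPM), High Drinker 22 the lowest in Cfap54 (6.14 CPM) and High Drinker 16 the lowest in Klf9 (114 CPM).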

How the results depend on the processing

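The main comparison called 11.1% of tested genes higher and 10.8% lower. DESeq2 called 2008 higher and 2009 lower of 16799 genes, DESeq2's size factors in edgeR gave 10.8% and 10.9%, no count filter 5.08% and 5.07% of a longer gene list, and 14 against 14 libraries 11.7% and 13.2%. The calls moved more with sex and sheet set as terms (4.77% and 5.17%), Ppp1r1b as a term (1.3% and 2.09%), females only (3.42% and 3.95%), Low Drinker only (5.65% and 6.18%), without the 5 libraries that stood apart (6.61% and 8.73%), 42 against 42 libraries (8.18% and 6.87%), and, added after seeing the data, without the 5 libraries highest in Ttr (6.46% and 8.34%) and set 1 ranked by itself (6.76% and 8.31%). They nearly vanished in set 1 only (0.0117% and 0.0%), males only (0.00593% and 0.0178%: Serpinb1b higher, and Ccn1, Prr16 and 2700081O15Rik lower; 3937 genes at an unadjusted p under 0.05 in edgeR), High Drinker only (0.0% and 0.0%; 1837 unadjusted), and, added after seeing the data, sex, sheet set and Ppp1r1b as terms (0.0% and 0.0%; 3045 unadjusted; 3242 of 3682 main calls kept their sign) and set 2 (0.0% and 0.0%; 4012 unadjusted). The cause was not tested; Low Drinker only (10 against 13 libraries) called 11.8% of genes in all and set 1 ranked by itself (12 against 12) 15.1%. The share of higher calls was 50.8% in the main comparison and 38.3% with Ppp1r1b as a term. Set 2 with the original sides could not be fitted, since no high-Ttr library is in it. The middle libraries and the interaction gave 0 calls under each alternative run. The line difference gave 2 lower choroid or ependymal genes without the sheet set term (Mns1, 1110017D15Rik), 4 with no count filter (Mns1, Lmx1a, Slc4a5, Mfrp) and 3 without the 5 libraries that stood apart (Mns1, Mfrp, Slc4a5). The sheet set imbalance had an adjusted Fisher's exact p of 0.0600 with 42 against 42 libraries.

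Of the named genes called or not, 149 kept their call, and their direction where called, under DESeq2's size factors in edgeR. With sex and sheet set as terms 108 did (40 no longer passed). The changes of sign that follow cover only genes called in the main comparison. Genes not called could change sign too. Of 5 tested blood genes 4 were positive in the main comparison and 0 with sex, sheet set and Ppp1r1b as terms. Log2 differences that changed sign with Ppp1r1b as a term were Slc4a10 0.0013, Car12 -0.50, Arpp21 -0.11, Adcy5 -0.16, Pde1b -0.089 and Rxrg -0.15. In males only it was Lhx9 -0.070. With sex, sheet set and Ppp1r1b as terms they were Slc4a10 0.074, Drc1 -0.071, Cacng4 -0.029, Adcy5 -0.064, Pde1b -0.024, Rxrg -0.12 and Tekt1 -0.014. In set 2, at 12 counts of Ttr or fewer, 53 changed sign: Prlr -0.039, Irs4 -0.94, Gabre -0.75, Asb4 -0.37, Agt -0.64, Frem3 -1.16, Calcr -2.19, Sytl4 -0.62, Arhgap36 -0.86, Gabrq -0.91, Cd72 -0.48, Adcyap1 0.14, Fos 0.19, Vat1l -0.17, Col9a3 -0.013, Pdgfrb 0.018, Tagln -0.11, Mobp -0.030, Cacng4 -0.28, Ppp1r1b -0.63, Arpp21 -0.33, Adcy5 -0.64, Pde1b -0.58, Sst 0.051, Npy 0.16, Slc17a7 0.41, Tbr1 0.087, Grik4 0.13, C1ql2 -0.53, Zic1 -0.30, Trh -0.25, Nkx2-1 -1.13, Lhx8 -1.53, Egr1 0.055, Arc 0.49, Nr4a1 0.30, Junb 0.36, Thra 0.17, Rxrg -0.54, Sostdc1 -0.44, Otx2 -0.035, Clic6 -1.32, Col8a2 -0.078, Foxj1 -0.099, Tekt4 -0.30, Kif6 -0.094, Crhr2 -0.51, Lhx9 -0.997, Gbx2 -1.62, Tcf7l2 -0.69, Synpo2 -0.61, Drd2 -0.82 and Adora2a -0.89.

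No paired analysis was possible because the labels give no replicate numbers that link animals across groups. At these depths a Ttr count of 0 allows up to 0.110 CPM on the low side, so the order among low-Ttr libraries is not resolved, and 1 count parts the low side from the middle. Because Ttr rank and sheet set vary together over the libraries, their parts in the differences cannot be told apart outside set 1.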
